A study of Mus musculus with 6 samples.

Results

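The genes described here are 45 genes of mitosis and the mitotic spindle, 45 of the 46983 genes listed in the expression table. They were chosen by name, as the genes whose identifier maps to one of 45 listed mouse symbols in GENCODE vM21. All 45 symbols were found, and all 45 passed the filter for testing, a mean of at least 0.5 FPKM, a count of fragments scaled by gene length and library depth. The members were placed in 8 roles: mitotic entry, the chromosomal passenger complex, the spindle assembly checkpoint, anaphase and mitotic exit, the centromere and kinetochore, spindle motors and microtubule binders, the central spindle and cytokinesis, and condensin with other genes of mitotic chromosomes.

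The study asked how HIF-1α, a transcription factor stabilized when oxygen is low, acts in B cells that switch to IgA. Bulk RNA-seq was made from splenic B cells, which the methods describe as sorted follicular CD21int CD23+ cells, after 3 days in culture, in 3 WT and 3 *Hif1a* KO libraries. Every culture of both groups received 5 μg/ml LPS together with 10 ng/ml each of TGF-β, BAFF and IL-5, a mixture that drives class switching to IgA. No other time, stimulus or unstimulated culture is part of these 6 libraries. The KO cells came from *Hif1a* f/f mice carrying *Mb1*-cre, in which the recombinase is driven from the *Cd79a* (*Mb1*) locus and acts in the B lineage from an early stage. WT stands for littermates that were either *Hif1a* f/+ with cre or *Hif1a* f/f without it, on a C57BL/6 background, while neither the cre status of a library nor the age of the mice is stated. The labels do not say that the libraries of a group came from separate animals, so the p-values measure only the spread between these samples, part of which may be technical.

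Cells in mitosis condense and resolve their chromosomes, attach them to spindle microtubules through kinetochores, and separate them once the spindle assembly checkpoint is satisfied. Many of the genes involved are transcribed in a burst late in the cell cycle, under the MuvB complex with B-MYB and FOXM1 as activators, so their transcripts are commonly read as a sign of how many cells are cycling. B cells given LPS divide several times within days, and class switching as well as the later plasma cell state are linked to those divisions.

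The targeted gene was measured first. *Hif1a* (ENSMUSG00000021109, chromosome 12 from 73901375 to 73947530 in mm10) stood at 36.5, 49.8 and 45.8 FPKM in WT replicates 1, 2 and 3 and 46.5, 45.6 and 52.8 FPKM in *Hif1a* KO replicates 1, 2 and 3. The groups overlapped, with WT replicate 1 lowest, and the log2 fold change was 0.14 (SE 0.12) with all libraries and 0.012 without WT replicate 1. It was 0.23 without WT replicate 2 and −0.053 without both WT replicate 1 and *Hif1a* KO replicate 3. Since FPKM counts the reads of all exons together, these values cannot show whether the floxed part was removed. All 10 B-cell markers passed the filter. The depth behind the values, read back from the FPKM steps, was 25030210 to 37222477 reads per library, and each member rested on 347 to 26986 reads per library.

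The 6 libraries did not divide by genotype. The first principal component of the 13312 genes tested, with 54.7% of the variance, set WT replicates 2 and 3 (26.2 and 25.9) apart from the remaining libraries, among them WT replicate 1 (−15.7), which lay between *Hif1a* KO replicates 1 (−9.86) and 3 (−19.5). Values are therefore given with and without these libraries below.

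No member was called different between *Hif1a* KO and WT cells. By limma on log2(FPKM + 1), with Benjamini-Hochberg adjustment over the 13312 genes tested, 0 of the 45 members had an adjusted p under 0.05, beside 0.0% of all genes tested. At an unadjusted p under 0.05 there were 0 members and 6.98% of all genes (929 of 13312, 2.48% higher and 4.5% lower in KO cells), and voom on the recovered reads gave 0 members on both counts. The KO and WT values overlapped in all 45 members, where 10.1% of all genes tested had groups that did not overlap (4.06% higher and 6.03% lower in KO cells). Estimates were below 0, meaning lower in KO cells, in 40 of the 45 members (88.9%) and in 57.9% of all genes tested, with a median log2 fold change of −0.096 over the members and −0.028 over all genes. With median-ratio scaling the members' median was −0.050 while that of all genes turned to 0.011, with 47.0% below 0, and with library weights the members' median was −0.14. The estimates ran from −0.22 for *Kif15* to 0.16 for *Cenpa*. For all 45 members the 95% interval lay within 1 log2 unit of 0 on both sides, and for 34 within 0.5, so at this depth and replication small differences in either direction were not resolved.

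**Figure D1:**
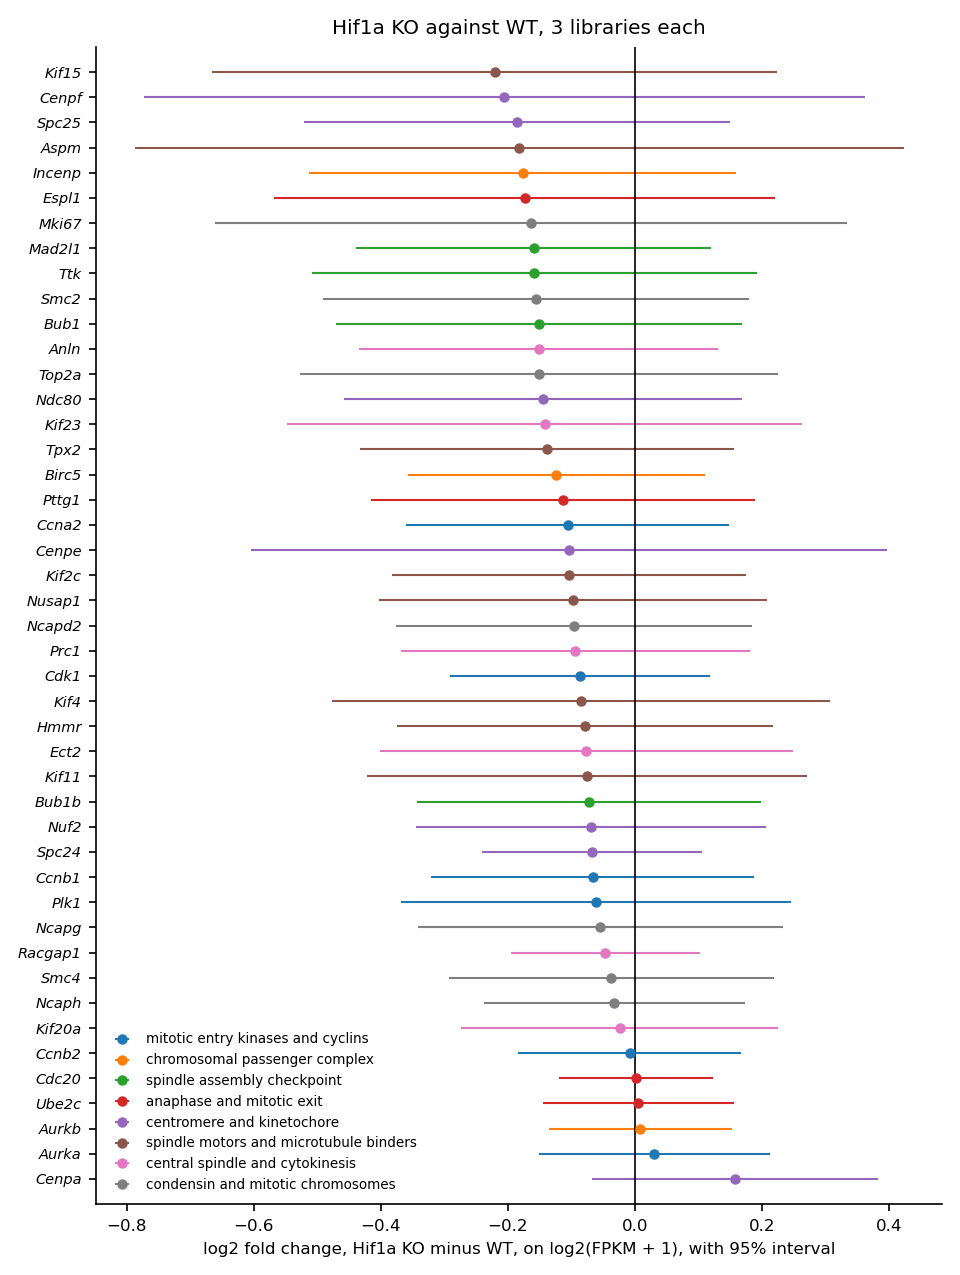
Log2 fold change of each of the 45 members on log2(FPKM + 1), *Hif1a* KO minus WT with 3 libraries each, with 95% intervals from limma as horizontal lines and role as colour. All 45 intervals include 0, and 40 of the 45 points lie to the left of it.

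Most members shared a pattern over single libraries. In replicate order, the mean log2(FPKM + 1) over the 45 members was 5.65, 5.91 and 5.95 in the WT libraries. It was 5.88, 5.81 and 5.55 in the KO libraries. WT replicate 1 and *Hif1a* KO replicate 3 were thus low and WT replicates 2 and 3 high. The group means, 5.84 in WT and 5.74 in KO cells, differed by −0.094, less than the SD of either group (0.16 and 0.18, n = 3 each). *Hif1a* KO replicate 3 held the lowest value of 37 members and WT replicate 1 that of 5. The 3 remaining members had their minimum elsewhere, *Ube2c* and *Cenpa* in WT replicate 2 and *Racgap1* in *Hif1a* KO replicate 2. For 40 of the 45 members (88.9%) the 2 lowest libraries were WT replicate 1 and *Hif1a* KO replicate 3, as they were for 18.4% of all genes tested and 66.4% of 122 other mitosis genes. The highest value lay in WT replicate 3 for 29 members and in WT replicate 2 for 7. Within each genotype the members' levels thus differed between libraries by more than the genotypes did. Fewer cells in mitosis and less of these transcripts per cell cannot be told apart in bulk RNA.

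**Figure D2:**
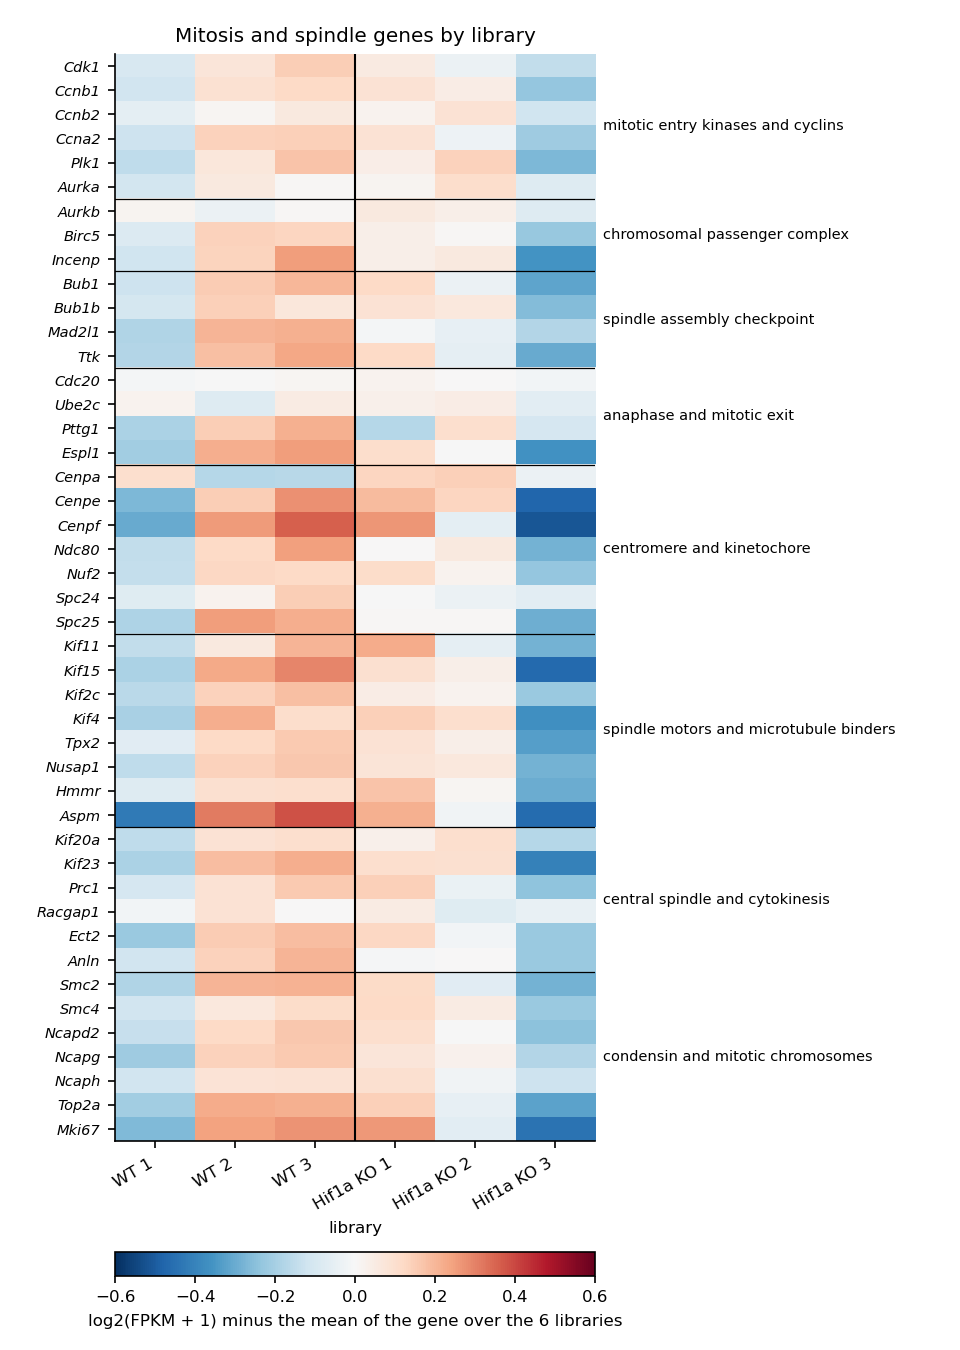
Log2(FPKM + 1) of the 45 members in the 6 libraries, each minus the mean of its gene over all 6, as colour (red higher, blue lower), with genes in rows by role and libraries in columns. WT replicate 1 and *Hif1a* KO replicate 3 are blue for most members, whereas *Cdc20* is near white throughout and *Cenpa* is blue in WT replicates 2 and 3.

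Because most members shared a pattern over the libraries, the members' promoters were searched for the letters by which late cell-cycle genes are commonly recognized. RefSeq windows (GRCm38.p6) of 300 bases, from 250 before to 50 after the annotated start, matched 38 of the 45 members by symbol, and *Ccna2*, *Aurkb*, *Incenp*, *Spc24*, *Tpx2*, *Kif20a* and *Smc4* had no window. The letters TTTGAA, a form of the cell-cycle genes homology region to which MuvB binds, were present on either strand in 29 of the 38 (76.3%), against 20.2% of all 27025 symbols with a window and 14.6% of the genes tested. Within 50 bases of the start they were present in 26 members (68.4%) and in 5.72% of all symbols. CCAAT, the box bound by NF-Y, was present in 28 (73.7%, against 41.1%), and both motifs together in 25 (65.8%, against 7.97%). Other mitosis genes with a window (102) had TTTGAA in 37.3%, CCAAT in 56.9% and both in 23.5%. For DNA replication genes with a window (44) these were 15.9%, 56.8% and 6.82%. Within 50 bases of the start, TTTGAA was present in 27.5% of the former and 9.09% of the latter. ACGTG, a form of the core to which HIF proteins bind, was present in 10 of the 38 (26.3%), above the 21.8% of all symbols and below the 29.7% of the genes tested. Of the 40 windows of the members, 1 had matches of different motifs that overlapped. In *Ccnb1*, *Birc5*, *Bub1*, *Mad2l1*, *Pttg1*, *Cenpe*, *Nuf2*, *Nusap1* and *Ncaph* the letters TTTGAA were not in the window. These 9 had a median log2 fold change of −0.10, and their spread over the libraries (highest minus lowest) had a median of 0.39, against −0.094 and 0.44 in the 29 with the letters. Other forms of the homology region were not searched, so a member without TTTGAA may still hold one. A match describes the window and is no measurement of binding.

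The part from 120 bases before to 30 after the start is printed for 5 members that span the observed range: the most abundant (*Top2a*), those with the lowest and highest estimates (*Kif15* and *Cenpa*), the steadiest (*Cdc20*) and one without TTTGAA (*Ccnb1*). They lie in GRCm38.p6 at chr11:99024160-99024309 (minus strand) for *Top2a*, chr9:122950961-122951110 (plus strand) for *Kif15*, chr4:118437314-118437463 (minus strand) for *Cdc20*, chr5:30666766-30666915 (plus strand) for *Cenpa* and chr13:100786457-100786606 (minus strand) for *Ccnb1*. Sequences read 5′ to 3′ toward the gene, and capitals mark TTTGAA or its reverse complement TTCAAA and CCAAT or its reverse complement ATTGG.
Top2a: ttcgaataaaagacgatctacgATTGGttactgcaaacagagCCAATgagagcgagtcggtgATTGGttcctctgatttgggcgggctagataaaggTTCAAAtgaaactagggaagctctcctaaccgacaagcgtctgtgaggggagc
Kif15: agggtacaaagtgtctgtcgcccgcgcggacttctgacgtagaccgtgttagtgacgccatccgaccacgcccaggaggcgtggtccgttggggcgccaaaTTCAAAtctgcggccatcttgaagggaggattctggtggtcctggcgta
Cdc20: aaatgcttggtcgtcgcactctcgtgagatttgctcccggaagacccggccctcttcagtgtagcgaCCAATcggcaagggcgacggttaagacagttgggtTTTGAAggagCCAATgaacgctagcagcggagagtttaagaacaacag
Cenpa: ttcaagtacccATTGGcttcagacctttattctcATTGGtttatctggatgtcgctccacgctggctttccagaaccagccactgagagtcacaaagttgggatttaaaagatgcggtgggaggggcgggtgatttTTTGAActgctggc
Ccnb1: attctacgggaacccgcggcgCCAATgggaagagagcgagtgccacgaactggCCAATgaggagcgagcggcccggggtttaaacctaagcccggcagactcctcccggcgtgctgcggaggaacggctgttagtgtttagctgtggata

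The kinases and cyclins of mitotic entry form the first role, with 6 members and a median log2 fold change of −0.064. *Ccnb1*, whose cyclin B1 activates CDK1 at mitotic entry, was the most abundant, at 87.3, 101 and 103 FPKM in WT replicates 1, 2 and 3 and 101, 97.5 and 80.5 FPKM in *Hif1a* KO replicates 1, 2 and 3. Both genotypes spanned nearly the same range, with the lowest value in *Hif1a* KO replicate 3 and the next in WT replicate 1, and the log2 fold change was −0.066 (SE 0.11). *Ccna2*, which encodes cyclin A2 of S phase and early mitosis, was at 84.9, 102 and 102 in the WT libraries and 98.3, 90.7 and 79.7 in the KO libraries, and its estimate of −0.11 (SE 0.11) was the lowest of the 6. *Aurka*, the kinase of centrosome maturation and spindle poles, was at 40.0, 45.2 and 43.5 in the WT libraries and 43.9, 46.7 and 41.0 in the KO libraries, and its estimate of 0.031 (SE 0.077) was the highest. Its estimate turned to −0.017 without WT replicate 1, its lowest library, and was 0.078 without *Hif1a* KO replicate 3. *Cdk1*, *Ccnb2* and *Plk1* lay between, at −0.086, −0.0079 and −0.061, and for all 6 genes WT replicate 1 and *Hif1a* KO replicate 3 were the 2 lowest libraries. Leaving out the former or the latter gave −0.14 and 0.032 for *Ccnb1* and −0.19 and −0.025 for *Ccna2*, and without the latter *Plk1* and *Ccnb2* turned to 0.058 and 0.050. At the other end *Plk1* was −0.15 without WT replicate 1 and *Ccnb2* −0.054 without *Hif1a* KO replicate 2. *Cdk1* was −0.16 without WT replicate 1 and −0.033 without WT replicate 3.

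The chromosomal passenger complex corrects faulty attachments of chromosomes to the spindle. Its kinase *Aurkb* was nearly level over the libraries, at 110.1, 106 and 109 FPKM in WT replicates 1, 2 and 3 and 113, 112 and 103 FPKM in *Hif1a* KO replicates 1, 2 and 3. Its estimate on the log2 scale was 0.0082 (95% interval −0.14 to 0.15), and WT replicate 1 was not low for this gene. It became −0.018 without *Hif1a* KO replicate 1 and 0.050 without *Hif1a* KO replicate 3. The scaffold *Incenp* was less even, at 48.7, 58.2 and 63.3 in the WT libraries and 54.3, 55.3 and 41.2 in the KO libraries, with a log2 fold change of −0.18 (SE 0.14). Leaving out *Hif1a* KO replicate 3, its lowest library, brought that to −0.042, and leaving out WT replicate 1 to −0.28. *Birc5*, which encodes survivin, the subunit that anchors the complex at centromeres, had −0.12, which was −0.20 without WT replicate 1 but −0.042 without *Hif1a* KO replicate 3. *Hif1a* KO replicate 3 was the lowest library for *Aurkb*, *Incenp* and *Birc5* alike. WT replicate 1 was the next lowest for *Incenp* and *Birc5* but not for *Aurkb*, a difference that was not tested.

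In the spindle assembly checkpoint, which delays anaphase until every kinetochore is attached, all 4 estimates were below 0, with a median of −0.16. *Bub1b* encodes BUBR1, part of the complex that holds back CDC20, and was at 133, 158 and 149 in the WT libraries and 152, 149 and 119 in the KO libraries, a log2 fold change of −0.072 (SE 0.11). *Mad2l1*, which encodes MAD2 of the same inhibitory complex, was at 36.3, 47.7 and 48.0 in the WT libraries and 40.9, 39.8 and 36.5 in the KO libraries, a log2 fold change of −0.16 (SE 0.12). Its WT replicate 1 value was as low as the lowest KO value, and without that library the estimate was −0.29, with a limma Benjamini-Hochberg adjusted p of 0.0523 (range over the alternatives 0.0523 to 1). The kinases *Bub1* and *Ttk* had −0.15 and −0.16. Taking away WT replicate 1 or *Hif1a* KO replicate 3 changed the estimates to −0.14 and 0.040 for *Bub1b*, −0.25 and −0.032 for *Bub1* and −0.29 and −0.046 for *Ttk*, in that order, and without WT replicate 3 *Mad2l1* was −0.093.

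Among the 4 genes of anaphase and mitotic exit, the pair that carries out the destruction of cyclins and securin was steady. *Cdc20* (ENSMUSG00000006398, chromosome 4 from 118432901 to 118437352), the activator of the anaphase-promoting complex, was at 146, 147 and 149 FPKM in WT replicates 1, 2 and 3 and 149, 148 and 146 FPKM in *Hif1a* KO replicates 1, 2 and 3. That is 147 ± 1.33 FPKM in WT and 148 ± 1.84 FPKM in KO cells (SD, n = 3 each), the narrowest spread over the libraries of any member, 0.036 on the log2 scale. Its log2 fold change of 0.0017 had a 95% interval of −0.12 to 0.12. *Ube2c*, the ubiquitin-conjugating enzyme of that complex, was at 85.8, 80.2 and 87.5 in the WT libraries and 86.4, 87.2 and 80.8 in the KO libraries, with a log2 fold change of 0.0056 (95% interval −0.15 to 0.16), although its exons share 22.8% of their bases with *Tnnc2*. *Espl1*, the separase that cleaves cohesin, varied more, at 14.3, 19.5 and 20.01 in the WT libraries and 18.0, 16.6 and 12.7 in the KO libraries, with −0.17 (SE 0.17). For *Espl1* WT replicate 1 and *Hif1a* KO replicate 3 were below the 4 remaining libraries. Securin, encoded by *Pttg1*, had −0.11. When single libraries were left out, *Cdc20* was −0.0073 without *Hif1a* KO replicate 1 and 0.010 without *Hif1a* KO replicate 3, *Ube2c* was −0.031 without WT replicate 2 but 0.040 without *Hif1a* KO replicate 3 and *Pttg1* was −0.24 without WT replicate 1 and −0.035 without WT replicate 3. *Espl1* was −0.32 without WT replicate 1 but −0.036 without *Hif1a* KO replicate 3.

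The 7 genes of the centromere and kinetochore held the highest estimate of all members and one of the lowest. *Cenpa* (ENSMUSG00000029177, chromosome 5 from 30666777 to 30674830), the histone H3 variant that marks centromeres, was at 136, 112 and 113 FPKM in WT replicates 1, 2 and 3 and 139, 140.1 and 124 FPKM in *Hif1a* KO replicates 1, 2 and 3. WT replicates 2 and 3 were the lowest 2 libraries, whereas WT replicate 1 lay among the KO values, and the groups overlapped for that reason. The log2 fold change was 0.16 (SE 0.095, limma Benjamini-Hochberg adjusted p = 0.635), and it was above 0 in all 18 alternatives, from 0.11 to 0.30. *Cenpa* was the only member called in any of them: at 0.25 with library weights (limma Benjamini-Hochberg adjusted p = 0.0486) and at 0.30 without both WT replicate 1 and *Hif1a* KO replicate 3 (limma Benjamini-Hochberg adjusted p = 0.0333). Over all alternatives its limma or voom Benjamini-Hochberg adjusted p ran from 0.0333 to 1. *Cenpf*, a large protein of the outer kinetochore, went the other way, at 23.8, 35.5 and 38.2 in the WT libraries and 35.8, 28.4 and 20.4 in the KO libraries. With the widest spread over the libraries of any member (0.87), its log2 fold change was −0.21 (95% interval −0.77 to 0.36), and it was −0.41 without WT replicate 1 but 0.00079 without *Hif1a* KO replicate 3. The motor *Cenpe* had −0.10, and the subunits of the NDC80 complex, which grips microtubule ends, had −0.14 (*Ndc80*), −0.069 (*Nuf2*), −0.067 (*Spc24*) and −0.19 (*Spc25*). Without *Hif1a* KO replicate 3 these turned to 0.11 for *Cenpe* and 0.030 for *Nuf2* and shrank to −0.040 for *Ndc80* and −0.084 for *Spc25*, and *Spc24* was −0.0094 without WT replicate 3. Without WT replicate 1 they were −0.26 (*Cenpe*), −0.25 (*Ndc80*), −0.16 (*Nuf2*), −0.12 (*Spc24*) and −0.33 (*Spc25*), and *Cenpa* was 0.25.

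All 8 estimates of the spindle motors and microtubule binders were below 0, with a median of −0.10. *Nusap1*, which bundles spindle microtubules, was the most abundant, at 63.7, 78.3 and 79.4 in the WT libraries and 74.8, 74.2 and 58.1 in the KO libraries, with −0.097 (SE 0.13). *Kif15* (ENSMUSG00000036768, chromosome 9 from 122951046 to 123018733), a kinesin that helps to keep spindle poles apart, had the lowest estimate of all 45 members, from 18.1, 24.6 and 25.7 FPKM in WT replicates 1, 2 and 3 and 22.3, 21.4 and 14.8 FPKM in *Hif1a* KO replicates 1, 2 and 3. Apart from *Hif1a* KO replicate 3 and WT replicate 1, the libraries of both genotypes lay between 21.4 and 25.7 FPKM. The log2 fold change was −0.22 (95% interval −0.67 to 0.22, limma Benjamini-Hochberg adjusted p = 0.694), with −0.044 without *Hif1a* KO replicate 3 and −0.37 without WT replicate 1. *Kif11*, the motor that pushes the poles apart, was closest to 0 in this role, at 40.3, 46.8 and 51.8 in the WT libraries and 52.5, 43.2 and 36.7 in the KO libraries and −0.076 (SE 0.15). Its highest value was in *Hif1a* KO replicate 1. *Kif2c*, *Kif4*, *Tpx2*, *Hmmr* and *Aspm* ran from −0.18 (*Aspm*) to −0.079 (*Hmmr*). Fits that lacked WT replicate 1 or *Hif1a* KO replicate 3 gave −0.20 and 0.020 for *Nusap1*, −0.21 and −0.018 for *Kif2c*, −0.20 and 0.079 for *Kif4* and −0.44 and 0.0043 for *Aspm*. For the others with a different library at the lower end, *Kif11* was −0.21 without *Hif1a* KO replicate 1 and 0.047 without *Hif1a* KO replicate 3, *Tpx2* was −0.22 without *Hif1a* KO replicate 1 and −0.0077 without *Hif1a* KO replicate 3 and *Hmmr* was −0.18 without *Hif1a* KO replicate 1 and 0.051 without *Hif1a* KO replicate 3.

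For the 6 genes of the central spindle and cytokinesis the median was −0.085. *Racgap1*, a subunit of centralspindlin, which organizes the midzone and the cleavage furrow, was at 145, 156 and 147 in the WT libraries and 152, 139 and 142 in the KO libraries, with −0.047 (95% interval −0.20 to 0.10). It was one of the steadiest members, and WT replicate 1 and *Hif1a* KO replicate 3 did not stand out. Its partner in that complex, *Kif23*, did show them low, at 31.4, 40.9 and 41.9 in the WT libraries and 38.5, 38.4 and 26.8 in the KO libraries, with −0.14. *Anln*, encoding the furrow protein anillin, was the least abundant member, at 4.89, 6.04 and 6.36 in the WT libraries and 5.36, 5.39 and 4.48 in the KO libraries, with −0.15 (SE 0.12). *Kif20a*, a kinesin of the midzone, was at 19.4, 23.1 and 23.4 in the WT libraries and 22.2, 23.3 and 19.2 in the KO libraries. Its estimate of −0.024 turned to 0.019 under median-ratio scaling and to 0.0048 under quantile normalization, and 29.3% of its exon bases are shared with *Cdc23*. *Prc1* and *Ect2* had −0.094 and −0.076. When either WT replicate 1 or *Hif1a* KO replicate 3 was dropped, the estimates were −0.27 and 0.025 for *Kif23*, −0.25 and −0.079 for *Anln*, −0.11 and 0.054 for *Kif20a* and −0.21 and 0.016 for *Ect2*. With other libraries at an end of the range, *Racgap1* was −0.083 without *Hif1a* KO replicate 1 and −0.015 without WT replicate 2 and *Prc1* was −0.19 without *Hif1a* KO replicate 1 and 0.0032 without *Hif1a* KO replicate 3. *Kif23* was named for its complex after its values were seen.

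Condensin and other genes of mitotic chromosomes held the 3 highest FPKM values, and their 7 estimates were all below 0. *Top2a* (ENSMUSG00000020914, chromosome 11 from 98992943 to 99024189), the topoisomerase that untangles sister chromatids, was at 381, 514 and 509 FPKM in WT replicates 1, 2 and 3 and 487, 425 and 352 FPKM in *Hif1a* KO replicates 1, 2 and 3. WT replicates 2 and 3 and *Hif1a* KO replicate 1 were high, and the log2 fold change was −0.15 (SE 0.16, limma Benjamini-Hochberg adjusted p = 0.740). It was −0.29 without WT replicate 1 but −0.029 without *Hif1a* KO replicate 3. *Mki67*, which encodes Ki-67, the coat protein of mitotic chromosomes used to stain cycling cells, was at 52.7, 75.1 and 76.6 in the WT libraries and 76.1, 60.7 and 46.4 in the KO libraries. The same libraries were high and low as for *Top2a*, and the log2 fold change was −0.16 (95% interval −0.66 to 0.33). *Ncaph*, a subunit of condensin I, was at 59.1, 67.9 and 68.2 in the WT libraries and 68.6, 63.2 and 58.9 in the KO libraries, with −0.032 (SE 0.086), an estimate that was 0.012 with median-ratio scaling. The 4 remaining condensin subunits had −0.16 (*Smc2*), −0.037 (*Smc4*), −0.096 (*Ncapd2*) and −0.054 (*Ncapg*). Dropping WT replicate 1 or *Hif1a* KO replicate 3 gave −0.34 and 0.017 for *Mki67*, −0.099 and 0.021 for *Ncaph*, −0.28 and −0.053 for *Smc2*, −0.19 and 0.0029 for *Ncapd2* and −0.17 and 0.021 for *Ncapg*, while *Smc4* was −0.11 without *Hif1a* KO replicate 1 and 0.065 without *Hif1a* KO replicate 3.

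The members' median depended on single libraries. Without *Hif1a* KO replicate 3 it was 0.0043, with 19 of 45 estimates below 0, and 21 members had the opposite sign from the fit with all libraries. Without WT replicate 1 it was −0.20, with 42 of 45 below 0. Leaving that library out also changed the calls over all genes, of which 9.4% had an adjusted p under 0.05 without it (1251 of 13312, limma with Benjamini-Hochberg adjustment), yet 0 of the 45 members did. The 5 members with an unadjusted p under 0.05 in that fit, named after their values were seen, were *Mad2l1*, *Spc25*, *Smc2* and *Pttg1*, lower in KO cells, and *Cenpa*, higher, beside 29.9% of all genes. Leaving out WT replicate 2 gave a median of −0.063, WT replicate 3 −0.040, *Hif1a* KO replicate 1 −0.17 and *Hif1a* KO replicate 2 −0.14. Without both WT replicate 1 and *Hif1a* KO replicate 3, an alternative chosen after seeing the data that leaves 2 libraries a group, it was −0.098, with 39 below 0 and 1 member called (*Cenpa*), beside 6.45% of all genes (2.48% higher and 3.97% lower). With library weights, 1 member (*Cenpa*) and 10.9% of all genes (4.06% higher and 6.82% lower) were called. The 5 members with estimates above 0 in the fit with all libraries (*Aurka*, *Aurkb*, *Cdc20*, *Ube2c* and *Cenpa*) became 9 with median-ratio scaling and 3 with immunoglobulin genes removed.

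**Figure D3:**
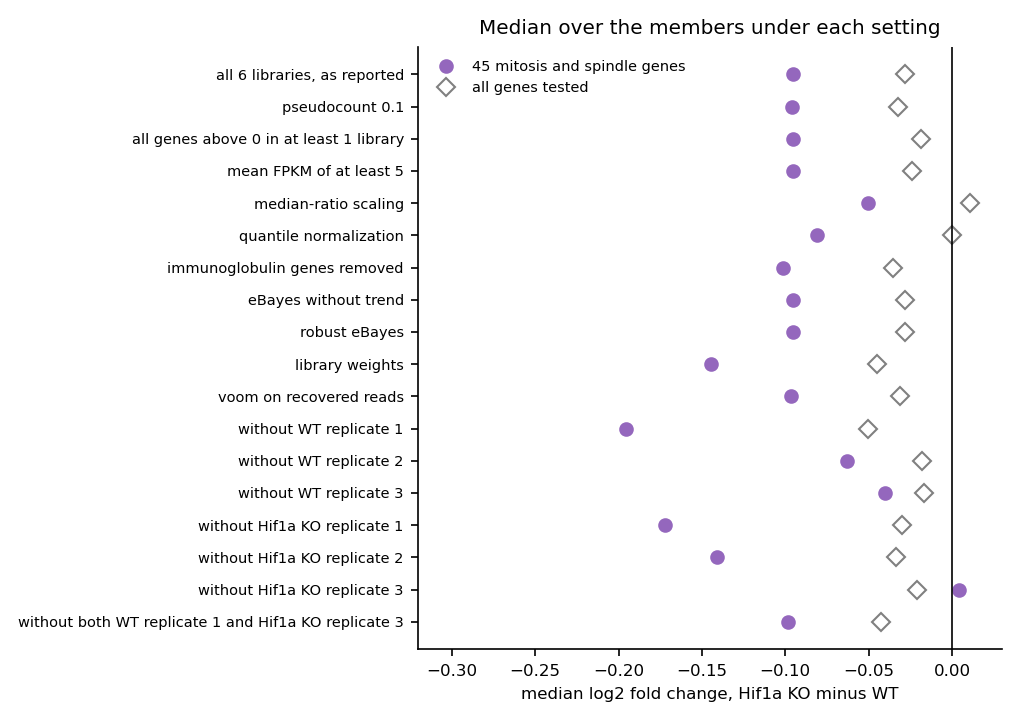
Median log2 fold change, *Hif1a* KO minus WT, over the 45 members (filled circles) and over all genes tested (open diamonds), one row per way of processing the values or leaving out libraries. The members' median is −0.096 with all 6 libraries, −0.20 without WT replicate 1 but 0.0043 without *Hif1a* KO replicate 3.

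How much a member varied over the libraries went with the length of its transcript. Across the 45 members, which are not independent of one another, Spearman's rho was 0.57 between the longest annotated transcript and the spread over the libraries, given as a description. The 18 members whose longest transcript has at least 4000 bases had a median spread of 0.50 and a median log2 fold change of −0.14. The 7 members under 2000 bases had 0.22 and −0.0079. The spread of genes tested outside the cell-cycle lists ran differently, with a median of 0.32 from 4000 bases up (4021 genes) and 0.47 below 2000 bases (4293 genes). In the long class their median deviation from the gene's own mean was −0.051 in WT replicate 1 and −0.053 in *Hif1a* KO replicate 3, where that of the long members was −0.19 and −0.30. Below 2000 bases it was 0.0029 and 0.012 in these libraries, and that of the short members was −0.071 and −0.079. In these libraries the deviation was thus lower in the longer class outside the lists as well, by less than among the members. The part of transcript length, or of RNA quality that can act through it, in the members' pattern was not tested.

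**Figure D4:**
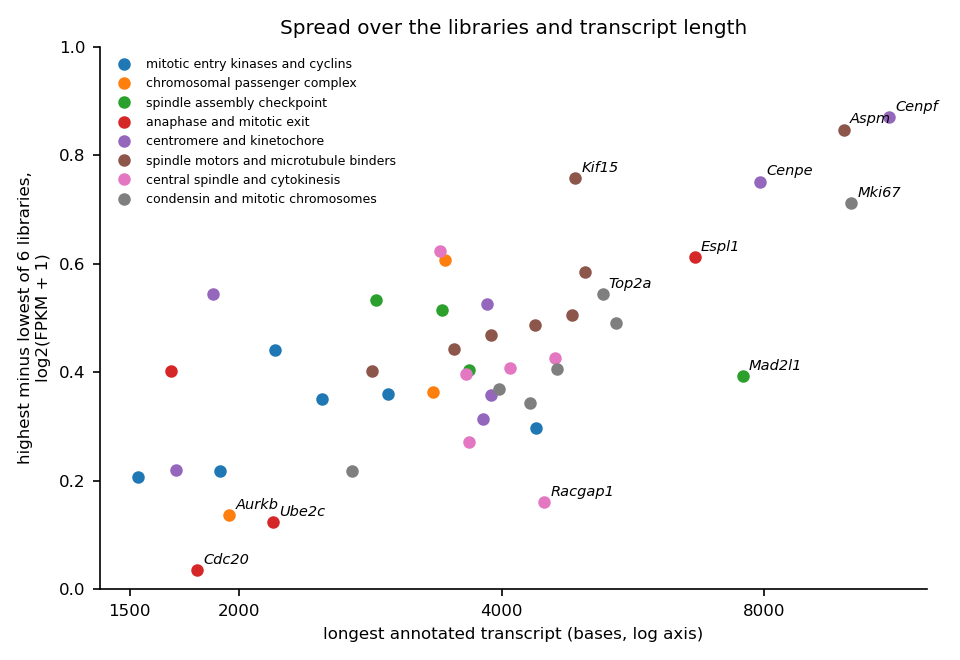
Spread of each of the 45 members over the 6 libraries, as highest minus lowest log2(FPKM + 1), against its longest annotated transcript in bases on a log axis, with role as colour. *Cenpf* and *Aspm*, with 11130 and 9867 bases, have the widest spread, *Cdc20* the narrowest, and *Mad2l1* and *Racgap1* are long but vary less.

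Levels between members depend on the length by which reads were divided. On the deposited FPKM scale, means over the 6 libraries ran from 5.42 (*Anln*) to 445 (*Top2a*), followed by 342 for *Ncapd2*, 184 for *Smc4* and 147 for *Cdc20*. The length recovered from these values was that of the mean annotated transcript in 33 of the 45 members, and less than 50% of the longest transcript in 18, such as 999 against 4629 bases for *Ncapd2*. With reads divided by the longest transcript instead, *Top2a* remained highest at 144 FPKM and *Anln* lowest at 6.38 FPKM. *Cdc20* came next below *Top2a*, at 84.7 FPKM, then *Ncapd2* at 73.8 FPKM and *Smc4* at 68.4 FPKM. *Mki67* moved from the 18th to the 5th place and *Cdk1* from the 11th to the 28th.

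Beyond the members, 122 other genes of mitosis were tested, and limma with Benjamini-Hochberg adjustment called 0 of them in either direction. Of these, 106 had estimates below 0, with a median of −0.11, which was −0.19 without WT replicate 1, −0.057 without WT replicate 3, −0.045 without *Hif1a* KO replicate 3 and −0.069 with median-ratio scaling. The 3 with an unadjusted p under 0.05, all lower in KO cells and named after their values were seen, were *Haus8* (−0.36), *Pkmyt1* (−0.31) and *Mad1l1* (−0.25), beside 4.5% of all genes tested. *Haus8* and *Mad1l1* were called lower without WT replicate 1, with library weights and without both WT replicate 1 and *Hif1a* KO replicate 3, and *Pkmyt1* with library weights. *Lmnb1*, the nuclear lamin B1 and the most abundant of the list, was at 186, 231 and 239.7 in the WT libraries and 196, 198 and 163 in the KO libraries, with −0.23 (SE 0.12), or −0.14 without *Hif1a* KO replicate 3. It was called only without both of those libraries, at −0.26 (limma Benjamini-Hochberg adjusted p = 0.0492, range over the alternatives 0.0492 to 1). *Psrc1*, a spindle protein with the lowest estimate, was at 44.8, 114 and 114 in the WT libraries and 51.2, 54.2 and 37.8 in the KO libraries. WT replicates 2 and 3 were at about the same high level and all remaining libraries far lower, and the log2 fold change of −0.81 (SE 0.36) was −1.26 without WT replicate 1 (limma Benjamini-Hochberg adjusted p = 0.00965, range over the alternatives 0.00581 to 1). *Cdc25b*, a phosphatase that activates CDK1, was at 75.8, 47.6 and 48.2 in the WT libraries and 78.6, 66.9 and 78.1 in the KO libraries, and its estimate of 0.41 (SE 0.18, 0.63 without WT replicate 1) was the highest. Without WT replicate 1, 12 genes of this list were called lower, beside 5.75% of all genes, and 1, *Cdc25b*, higher, beside 3.64%. Among 13 cohesin genes, 0 were called and the median was −0.016, from −0.16 for the acetyltransferase *Esco2* to 0.17 for the deacetylase *Hdac8*. That median was above 0 with median-ratio scaling (0.029), quantile normalization (0.00090), without WT replicate 2 (0.0037), without *Hif1a* KO replicate 3 (0.027) and without both WT replicate 1 and *Hif1a* KO replicate 3 (0.0031). *Esco2* was −0.32 without WT replicate 1 and −0.068 without WT replicate 2. *Smc1a*, their most abundant, had −0.038, which turned to 0.0074 with median-ratio scaling and 0.031 without both WT replicate 1 and *Hif1a* KO replicate 3. It was 0.065 without *Hif1a* KO replicate 3 alone and −0.096 without *Hif1a* KO replicate 1.

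The transcription factors known to act on late cell-cycle genes were measured too. Of 24 regulators of the cell cycle, 0 were called, 17 estimates were below 0, and the median was −0.10. It was −0.17, −0.057 and −0.056 when WT replicates 1, 2 and 3 were left out in turn. *Foxm1* was at 47.3, 49.8 and 57.0 in the WT libraries and 47.6, 49.5 and 39.6 in the KO libraries, with −0.17 (SE 0.11), or −0.075 without *Hif1a* KO replicate 3. *Mybl2*, which encodes B-MYB and had the lowest estimate, was at 77.2, 110.2 and 117 in the WT libraries and 77.0, 89.3 and 74.2 in the KO libraries, with −0.32 (SE 0.16). For *Mybl2* the high libraries were again WT replicates 2 and 3, and the estimate was −0.50 without WT replicate 1 (limma Benjamini-Hochberg adjusted p = 0.0284, range over the alternatives 0.0284 to 1) and −0.21 without WT replicate 3. *E2f2* had the highest estimate, 0.17, and *Rbbp4*, a subunit of MuvB and the most abundant, had −0.11, and without WT replicate 1 these were 0.26 and −0.18. Other fits made both smaller, with 0.11 for *E2f2* without WT replicate 3 and −0.070 for *Rbbp4* without WT replicate 2 (−0.064 with median-ratio scaling). *E2f2* was called with library weights, at 0.25 (limma Benjamini-Hochberg adjusted p = 0.0492, range over the alternatives 0.0492 to 1). *E2f7*, named after its values were seen, was called lower with library weights, at −0.45 (limma Benjamini-Hochberg adjusted p = 0.0377). It was also called without WT replicate 1, at −0.46 (limma Benjamini-Hochberg adjusted p = 0.0441). Without both WT replicate 1 and *Hif1a* KO replicate 3 it was called at −0.52 (limma Benjamini-Hochberg adjusted p = 0.0463). The 1 gene with an unadjusted p under 0.05 was *Nfyc* (named after its value was seen), a subunit of NF-Y, at 0.16, higher in KO cells as were 2.48% of all genes at that p.

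Earlier phases of the cycle were compared by lists of their own. Of 54 DNA replication genes 0 were called and 47 had estimates below 0, with a median of −0.13, from −0.48 for thymidylate synthase (*Tyms*) to 0.084 for the helicase subunit *Mcm6*, and −0.12 for the most abundant, *Pcna*. Without WT replicate 1 *Mcm6* was 0.021 and *Pcna* −0.20, and without WT replicate 2 *Pcna* was −0.077. The median of the list was −0.20 without WT replicate 1 and −0.087 without WT replicate 3. For 38.9% of them WT replicate 1 and *Hif1a* KO replicate 3 were the 2 lowest libraries, against 88.9% of the mitosis and spindle genes, 66.4% of the other mitosis genes and 69.2% of the cohesin genes. *Tyms*, the 1 gene of the list with an unadjusted p under 0.05, beside 4.5% of all genes lower in KO cells at that p, was at 35.4, 57.0 and 60.2 in the WT libraries and 37.2, 35.3 and 33.5 in the KO libraries. Its log2 fold change of −0.48 was −0.71 without WT replicate 1 (limma Benjamini-Hochberg adjusted p = 0.00559, range over the alternatives 0.00559 to 1). Of 16 G1 cyclins and CDK inhibitors 14 were tested and 0 called, while at an unadjusted p under 0.05 *Cdkn1a* was lower and *Cdkn2a* higher, beside 4.5% and 2.48% of all genes. *Cdkn1a*, the inhibitor p21, was at 21.6, 122 and 109.6 in the WT libraries and 26.7, 20.4 and 16.9 in the KO libraries. Only WT replicates 2 and 3 were high, so its log2 fold change of −1.62 (SE 0.62, limma Benjamini-Hochberg adjusted p = 0.626) was −2.41 without WT replicate 1 (limma Benjamini-Hochberg adjusted p = 0.00300, range over the alternatives 0.00300 to 1). *Cdkn2a*, at 5.19, 5.54 and 4.63 in the WT libraries and 6.81, 7.26 and 5.82 in the KO libraries, had the highest estimate, 0.32, with groups that did not overlap, and *Cdk4*, the most abundant, had −0.14, or −0.082 without *Hif1a* KO replicate 2. The difference between these lists and the mitosis and spindle genes was not tested.

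Other properties of the libraries moved with the members' pattern in part. Plasma cell markers, of which 7 of 8 were tested, summed to 1449.8, 979 and 929 in the WT libraries and 1393, 1036 and 1788 in the KO libraries (FPKM, in replicate order), led by *Mzb1*, and were thus high where the members were low, but also in *Hif1a* KO replicate 1, where the members were high. The 13 mitochondrially encoded genes summed to 12102, 7868 and 8659 in the WT libraries and 9531, 12412 and 12449.9 in the KO libraries, lowest in WT replicates 2 and 3. B-cell markers, with 10 of 10 tested and *Cd79a* the most abundant, summed to 4277, 3433 and 3493 in the WT libraries and 3461, 4616 and 3484 in the KO libraries and did not follow the members. The percentage of reads on immunoglobulin genes was 2.75, 1.97 and 1.81 in the WT libraries and 2.42, 2.205 and 2.88 in the KO libraries. On the members it was 0.574, 0.703 and 0.718 in the WT libraries and 0.693, 0.639 and 0.528 in the KO libraries, lowest in WT replicate 1 and *Hif1a* KO replicate 3, the libraries highest in immunoglobulin reads. The part of these properties in the members' levels was not tested.

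**Figure D5:**
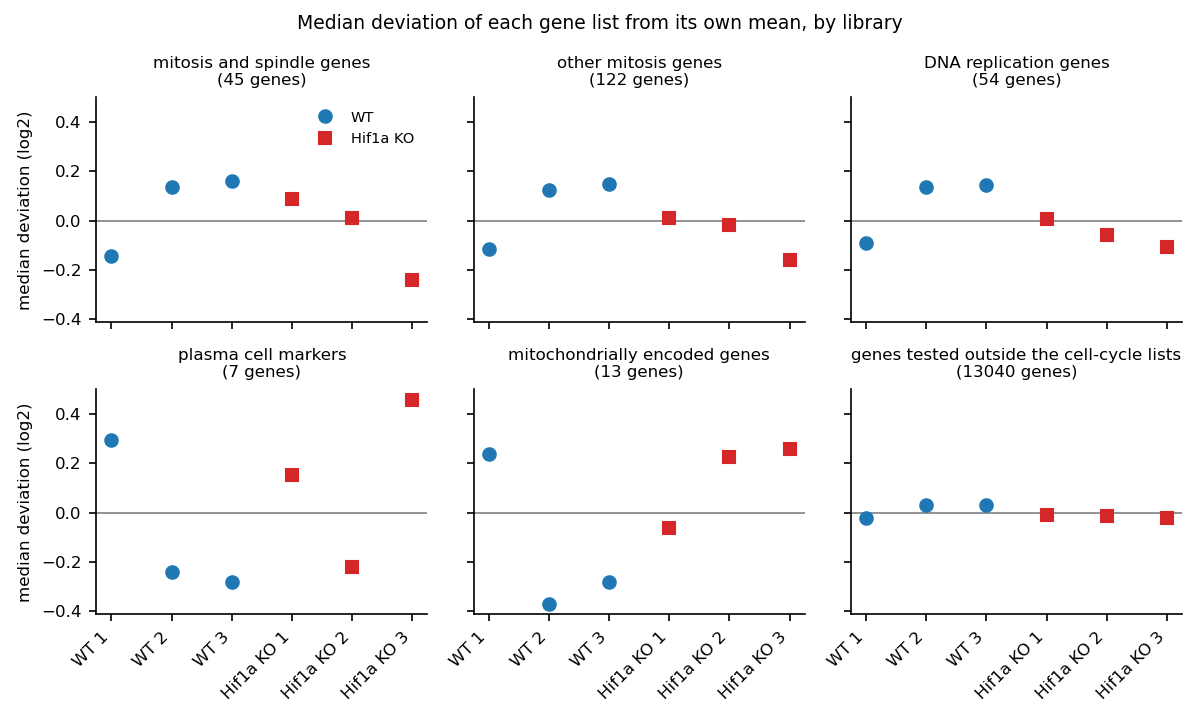
Median over the genes of a list of the deviation of log2(FPKM + 1) from the gene's own mean, by library, for 6 lists in separate panels with one scale (WT as circles, *Hif1a* KO as squares). The mitosis and spindle genes lie between −0.24 in *Hif1a* KO replicate 3 and 0.16 in WT replicate 3, plasma cell markers between −0.28 in WT replicate 3 and 0.46 in *Hif1a* KO replicate 3, and the 13040 genes outside the cell-cycle lists between −0.022 and 0.033.

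Markers of other cells, which a follicular B-cell sort should remove, were uneven over the libraries, and some genes on these lists are also expressed by B cells. Macrophage and monocyte markers had 4 of 13 tested and summed to 73.5, 171 and 119 in the WT libraries and 73.8, 78.7 and 66.6 in the KO libraries, led by *Adgre1*, with *Csf1r* between 0.0466 and 0.754 FPKM. Lysozyme (*Lyz2*) of that list, named after its values were seen, was at 6.18, 58.3 and 26.2 in the WT libraries and 0.5996, 2.23 and 3.70 in the KO libraries. It was highest in WT replicates 2 and 3, where the members were high. Its lowest value was in *Hif1a* KO replicate 1, where they were also high. Its groups did not overlap (log2 fold change −2.97, limma Benjamini-Hochberg adjusted p = 0.626). Without WT replicate 1 it was called lower, at −3.79 (limma Benjamini-Hochberg adjusted p = 0.0135), beside 5.75% of all genes. *C1qa* of that list was also called lower in that fit, at −1.43 (limma Benjamini-Hochberg adjusted p = 0.0228). *Adgre1* and *Cd68* were not called. Neutrophil markers (3 of 9 tested) summed to 38.9 in WT replicate 1 and to at most 0.528 elsewhere, with *S100a9* at 19.9 FPKM in that library and at 0 in all 5 others. Erythroid markers (4 of 9) summed to 107, 153 and 151 in the WT libraries and 119, 101 and 91.5 in the KO libraries, led by the transferrin receptor *Tfrc*, which dividing cells also express. The globin genes *Hbb-bs* and *Hba-a1*, also named after their values were seen, were highest in WT replicates 2 and 3 as well. *Hbb-bs* was at 0.511, 8.05 and 5.595 in the WT libraries and 0.829, 0.353 and 0.637 in the KO libraries, and *Hba-a1* at 0.180, 4.49 and 3.48 in the WT libraries and 0.402, 0.488 and 0.112 in the KO libraries. *Hbb-bt*, the remaining globin gene tested, was highest in *Hif1a* KO replicate 2. It was at 2.29, 2.80 and 2.85 in the WT libraries and 1.42, 3.77 and 2.10 in the KO libraries. Without WT replicate 1 *Hbb-bs* was called lower, at −2.28 (limma Benjamini-Hochberg adjusted p = 0.00437). *Hba-a1* was also called lower in that fit, at −1.91 (limma Benjamini-Hochberg adjusted p = 0.00494). *Hbb-bt* was not called there, at −0.22. Dendritic cell markers (6 of 8) summed to 48.5, 81.1 and 74.9 in the WT libraries and 40.6, 59.3 and 47.4 in the KO libraries, led by *Bst2*. Stromal and endothelial markers (3 of 8), led by *Pecam1*, summed to 86.6, 87.1 and 84.1 in the WT libraries and 83.0, 99.4 and 78.6 in the KO libraries. Of 10 T-cell markers only *Lck*, which activated B cells can also express, was tested, at 131, 96.2 and 90.1 in the WT libraries and 137, 133 and 136 in the KO libraries. *Lck* was lowest in WT replicates 2 and 3, and its groups did not overlap (log2 fold change 0.37, limma Benjamini-Hochberg adjusted p = 0.626). Without WT replicate 1 it was called higher, at 0.54 (limma Benjamini-Hochberg adjusted p = 0.00675), beside 3.64% of all genes. The other 9 T-cell markers stayed below the filter, with *Cd3e* at most 0.134, *Trac* at most 0.685 and *Cd3g* at most 0.902 FPKM. Of 7 NK-cell markers only *Prf1* was tested, at most 2.22 FPKM, with *Klrd1* at most 0.480 FPKM and *Gzma* and *Gzmb* at 0 in every library. The 4 Y-linked genes summed to 148 FPKM in *Hif1a* KO replicate 2 and to at most 0.0790 in any other library, so that library came from another animal, or other animals, than *Hif1a* KO replicates 1 and 3. The part of these cells, or of sex, in the members' levels was not tested.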

How the data were processed

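The 6 bulk RNA-seq libraries were 3 WT and 3 *Hif1a* KO, grouped by the sample labels. The authors filtered paired-end reads, aligned them (TopHat v2.0.12 with a Bowtie v2.2.3 index of mm10), counted reads per gene with HTSeq v0.6.1, divided by gene length and depth, and deposited the FPKM values. The annotation release, strand option and handling of reads with several alignments are not given in the sources used here, so overlapping genes and near-identical copies are uncertain: over 10% of exon bases are shared with another gene in 6 members, and *Ccnb1* and *Ccnb2* have pseudogenes (*Ccnb1-ps*, *Ccnb2-ps*) that were themselves above 0. The authors tested counts with DESeq. Here only FPKM was at hand, so limma was used instead.

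GENCODE vM21 on GRCm38 (mm10) gave symbols to 46488 of 46983 identifiers. Whole reads and gene lengths were recovered for 25714 of the 25717 genes above 0, which gave depths, in replicate order, of 37222477, 30955753 and 25973237 reads (WT) and of 25030210, 34356000 and 29869848 reads (*Hif1a* KO). At the lowest depth 1 read on 1 kb is worth 0.0400 FPKM. No 2 libraries held identical values (0 pairs), and all per-sample columns were used.

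Genes with a mean of at least 0.5 FPKM (13312) were tested in R 4.3.3 with limma 3.58.1 (eBayes with a mean-variance trend, two-sided) on log2(FPKM + 1), a scale that understates changes of low genes, without covariates, and adjusted by Benjamini-Hochberg. A gene was called at an adjusted p under 0.05. An exact permutation p of 3 libraries against 3 is never smaller than 0.1. The fit of *Hif1a* KO against WT with all 6 libraries was tested on simulated data for the 13312 genes, with noise drawn for each gene and library separately. It called 54 of 200 genes changed by 0.5 log2 units, with 2 unchanged genes, and 145 of 200 changed by 1, with 3 unchanged genes. Tables and figures were made with Python 3.11.15, pandas 2.3.3, numpy 2.4.6, scipy 1.17.1 and matplotlib 3.10.9.

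The members and all lists were chosen with earlier results of these data known. Of each role the text gives the member with the highest mean FPKM, those with the lowest and highest fold change and any with an unadjusted p under 0.05. Of each other cell-cycle list it gives the most abundant gene and the lowest and highest fold change, with *Foxm1*, *Mybl2* and *Hif1a* added. Alternatives were other pseudocounts, filters, scalings and variance models, a replicate block, library weights, voom on the recovered reads, and each library left out in turn.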

Additional observations from a re-analysis of the deposited data

How the results depend on the processing

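With all 6 libraries limma called 0 genes, 0 members and 0 genes of the other lists, and the members' median stayed between −0.20 and 0.0043 over all alternatives. Calls appeared under 2 settings that are not single left-out libraries. With library weights 1449 genes were called, among them 1 member, 12 other mitosis genes, 3 regulators of the cell cycle, 2 G1 cyclins and CDK inhibitors and 5 DNA replication genes. Without both WT replicate 1 and *Hif1a* KO replicate 3, chosen after seeing the data, 859 genes were called, with 1 member, 13 other mitosis genes, 1 regulator, 2 G1 cyclins and CDK inhibitors and 5 DNA replication genes. With 1 library left out in turn, the number of genes called ran from 0 to 1251 (without WT replicate 1), with 0 members in each case, 0 to 13 other mitosis genes, 0 to 2 regulators, 0 to 3 G1 cyclins and CDK inhibitors and 0 to 5 DNA replication genes. Without *Hif1a* KO replicate 1 there was 1 gene. The cause of these differences was not tested. voom on the recovered reads called 0 members, with a median of −0.097.

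Signs of some estimates turned under some alternatives. With median-ratio scaling *Kif20a* was 0.019, *Ncaph* 0.012 and *Smc1a* 0.0074, and with quantile normalization *Kif20a* was 0.0048. With immunoglobulin genes removed *Cdc20* was −0.0040 and *Ube2c* −5.5e−05, and with library weights *Aurka* was −0.0019. Without both named libraries *Smc1a* was 0.031 and *Hif1a* −0.053, while *Aurkb* was 0.060 and *Ube2c* 0.051. With 1 library left out in turn, turning log2 fold changes among the genes named by rule ran over −0.017 to 0.078 (*Aurka*), −0.018 to 0.050 (*Aurkb*), −0.14 to 0.040 (*Bub1b*), −0.14 to 0.032 (*Ccnb1*), −0.0073 to 0.010 (*Cdc20*), −0.41 to 0.00079 (*Cenpf*), −0.21 to 0.047 (*Kif11*), −0.11 to 0.054 (*Kif20a*), −0.34 to 0.017 (*Mki67*), −0.099 to 0.021 (*Ncaph*), −0.20 to 0.020 (*Nusap1*), −0.096 to 0.065 (*Smc1a*) and −0.031 to 0.040 (*Ube2c*). Those called without WT replicate 1 ran over −1.26 to −0.59 (*Psrc1*), 0.29 to 0.63 (*Cdc25b*), −0.50 to −0.21 (*Mybl2*), −2.41 to −1.19 (*Cdkn1a*) and −0.71 to −0.34 (*Tyms*). *Hif1a* ran over 0.012 to 0.23 (without WT replicate 2). The cause was not tested. Of the named members' other values, 244 kept their direction and their side of the threshold under the alternatives with all libraries or both left out, and 104 with 1 library left out.

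Replicate numbers did not pair the libraries: deviations from the group means correlated across genes at −0.099, 0.14 and −0.28 for numbers 1, 2 and 3. The highest correlation between a WT and a KO library was 0.30, for WT replicate 1 and *Hif1a* KO replicate 3, over all 13312 genes tested. With the replicate block 0 genes and 0 members were called, and the median was −0.096.

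Limits are the 3 libraries a group, with a members' median above 0 only without *Hif1a* KO replicate 3 and most calls only without WT replicate 1 or with little weight on it, the unknown cre status and source animal of each library, and FPKM in place of counts. A member's 95% interval was 0.242 to 1.21 log2 units wide from end to end. With 1 library left out a group of 2 shares the spread estimated over all genes and libraries. Protein, cell number and cell-cycle phase were not measured here.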
